A study of Mus musculus with 8 samples.

Results

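Brown adipose tissue is built by precursor cells that pass through a series of transcription factors before they fill with lipid and mitochondria. The 10 genes described here encode such factors: Zfp423, Ebf1, Ebf2, Ebf3 and Tbx15, known from the commitment of fat precursors, Zic1 and Lhx8, used as marks of classical brown fat, Tcf21, used as a mark of white fat precursors, and Cebpa and Klf15, which act in the maturing and mature fat cell. They were taken as every non-control probe that carries one of these gene names in the scanner tables, which gave 13 probes of 39429 on the array. Of the 10 genes, 9 had a probe bright enough to be tested, among 21742 genes tested in all, and Tcf21 had none.

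In the textbook order, ZFP423 commits a precursor to the fat lineage, EBF2 opens brown-selective genes to the fat regulator PPARG, and C/EBPA then drives and maintains the programme of the mature adipocyte. PRDM16, a zinc-finger regulator that works with EBF2 and C/EBP proteins, favours the brown over the muscle or white programme. ZFP423 is also known to hold EBF2 back in adult white fat cells. KLF15 is a Krüppel-like factor induced by glucocorticoids that governs genes of glucose uptake and amino acid breakdown in fat, muscle and liver.

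Total RNA came from brown adipose tissue of Prdm16 knockout (KO) and wild-type (WT) mice, taken at 6 weeks and at 11 months of age. Each of the 8 arrays carried a knockout and a wild-type sample of equal age in 2 colours, with 4 arrays per age and the dyes exchanged on 2 of each 4. The labels call the samples biological replicates and state neither the kind of Prdm16 allele nor the cells in which it was lost, nor the strain or sex, nor whether mice were pooled. The ages were run as separate batches on separate slides, so age and batch cannot be told apart, and no level was compared between ages. All ratios below are log2 of knockout over wild type, and levels are log2 intensities of the knockout or wild-type channel after normalization. A gene was called at a Benjamini-Hochberg adjusted p below 0.05 in a limma model over all genes, and ± gives that model's standard error unless it is marked SD. In whole tissue, fewer cells of a type and less RNA per cell cannot be told apart.

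Prdm16 itself, read by 1 probe on chromosome 4 (153690254 to 153690313, mm9), had a fitted ratio of -0.58 ± 0.17 at 6 weeks (adjusted p = 0.0637) and of -0.58 ± 0.17 at 11 months (adjusted p = 0.0295). The 11-month call ended without 11-month array 1, 3 or 4 (adjusted p = 0.117, 0.13 and 0.0812), without both arrays numbered 4 (adjusted p = 0.113) and under median centring (-0.24, adjusted p = 0.306). In addition, no source used here places the probe inside or outside the deleted part, so this checks the labels only weakly. Brown adipocyte markers were well above background in the tissue, with 12 of 12 tested. All 12 were lower in knockout tissue at 11 months, where 40.6% of all genes were called. At 6 weeks, where 14.1% were called, 3 were lower (Kng1, Kng2 and Pank1) and 0 higher. The other 9 were not called, Ucp1 (0.13) and Cidea (-0.0036) among them, and the list median was -0.86. This list was chosen with earlier results of these data known. Skeletal muscle markers differed widely between single arrays: the median ratio of 14 of 14 tested markers was 0.03, -2.76, 2.94 and -3.40 in the 6-week arrays 1 to 4 and -0.36, -1.19, -0.36 and 1.72 in the 11-month arrays. Their summed linear intensity ran from 8470 to 42449 in knockout and from 4360 to 174323 in wild-type tissue at 6 weeks, and from 82103 to 748706 in knockout and from 101712 to 555856 in wild-type tissue at 11 months. Of the 14, 0 were called at either age (limma), and 1 at 6 weeks and 0 at 11 months had an unadjusted p below 0.05.

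At 6 weeks 0 of the 9 genes passed the limma test, where 14.1% of all genes tested did. Ebf2, Zic1, Cebpa and Klf15 had an unadjusted p below 0.05, which makes 4 of 9. At 11 months 3 of 9 were called, Zfp423, Cebpa and Klf15, all higher in knockout tissue, where 40.6% of all genes tested were called. The share of 33.3% therefore lay near that of all genes. The median ratio of the 9 genes was 0.07 at 6 weeks and 0.46 at 11 months, beside medians of -0.0011 and 0.01 over all genes. For the difference between ages, 11 months minus 6 weeks, 2 of 9 were called, Cebpa and Klf15, where 21% of all genes were. The mean of both ages, a contrast chosen after the data were seen, called 4 of 9 (Zfp423, Cebpa and Lhx8 higher and Ebf2 lower), where 38.4% of all genes were called. With median centring of each array in place of loess, which moved the median of all genes at 11 months to 0.18, 7 of 9 were called at 11 months, where calls over all genes numbered 11580 of 21742, against 8819 with loess.

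**Figure D1:**
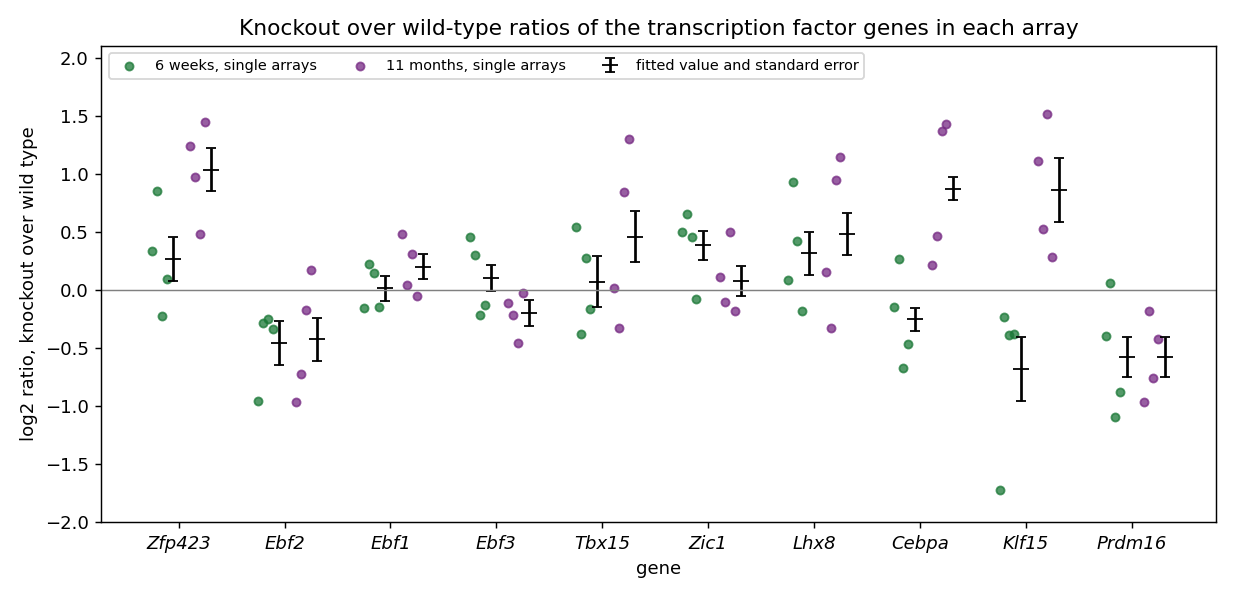
Log2 ratio of knockout over wild type (vertical axis) of the 9 tested transcription factor genes and Prdm16 (horizontal axis) in each array at 6 weeks (green) and 11 months (purple); black marks show the fitted value with its standard error. Klf15 lies below 0 in all 4 arrays at 6 weeks and above 0 in all 4 at 11 months, Cebpa lies above 0 in all 4 arrays at 11 months, Zfp423 lies above 0 in all 4 arrays at 11 months, and Ebf2 lies below 0 in all 4 arrays at 6 weeks.

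Zfp423, the gene of the commitment factor, was 2.05-fold higher in knockout tissue at 11 months on its brightest probe. Its brightest probe (A_55_P2102335, chromosome 8, 90185710 to 90185769, minus strand, mm9) had levels of 10.78, 10.77, 10.79 and 11.04 in knockout tissue, against 9.55, 9.80, 10.30 and 9.59 in wild-type tissue. All 4 knockout levels lay above all 4 wild-type levels. The ratios of arrays 1 to 4 were 1.24, 0.97, 0.48 and 1.44, and the fitted value was 1.03 ± 0.19 (adjusted p = 0.0037). Array 3 was the lowest, and without any single array the value stayed called at 0.90 to 1.31. At 6 weeks the levels overlapped, at 9.88, 10.07, 9.68 and 9.95 in knockout tissue, against 9.54, 9.22, 9.91 and 9.85 in wild-type tissue, and the fitted ratio was 0.27 ± 0.19 (adjusted p = 0.386). The difference between ages was 0.77 ± 0.26 and not called (adjusted p = 0.0766), but it was called without 11-month array 3 (1.04, adjusted p = 0.0122) and under median centring (0.98, adjusted p = 0.0438).

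The other 2 probes of Zfp423 gave smaller ratios. Probe A_55_P2148921 (chromosome 8, 90210329 to 90210388, minus strand, mm9) lies 24619 bases from the brightest probe. Its fitted ratio at 11 months was 0.41 ± 0.15 (adjusted p = 0.0672 over all probes), higher in 4 of 4 arrays and with no overlap of the levels. Probe A_51_P328442 (chromosome 8, 90185918 to 90185977, minus strand, mm9) gave 0.22 ± 0.13 (adjusted p = 0.224), with the knockout channel higher in 3 of 4 arrays. This probe lies nearest to the brightest one, yet its ratio was the smallest of the 3. At 6 weeks it read -0.08 ± 0.13 (adjusted p = 0.739). Its fitted dye effect (Cy5 over Cy3) was 0.29, against -0.13 for the brightest probe. The direction at 11 months was thus shared by all 3 probes, and the size was not. Of the 3 probes the brightest alone was called, while the mean of the 3, at 0.56, was called as well (adjusted p = 0.0158). Sequences of the pair of probes farthest apart, taken from the scanner tables, show what each reads. In the brightest probe the capitals mark AATAAA, the letters of a polyadenylation signal, in 30 of its 60 bases. These letters stand in 12.6% of the 39429 probes, on the printed strand. In the probe far from it the capitals mark 2 TGC triplets with 6 bases between them, which as cysteine codons would have the spacing of the cysteine pair of a C2H2 zinc finger, a pattern held by 1.28% of all probes. The reading frame was not checked.
Zfp423 A_55_P2102335, 30 bases: ctagttcagctcAATAAAgggaatccatgc
Zfp423 A_55_P2148921: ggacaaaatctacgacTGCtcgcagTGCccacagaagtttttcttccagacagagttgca

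Markers of precursors and fibroblasts, the cells in which Zfp423 is best known, moved in the same tissue. At 11 months, where 40.6% of all genes were called, 8 of 14 tested were higher and 0 lower in knockout tissue, with a median ratio of 0.71. At 6 weeks, where 14.1% were called, 0 of these markers were higher and 1 was lower. Their summed linear intensity at 11 months ran from 116993 to 314539 in knockout tissue, against 70220.5 to 82218.6 in wild-type tissue. The median ratio of these markers was 0.52, 0.40, 1.52 and 0.33 in the 11-month arrays 1 to 4. The array with the highest marker median was thus the one with the lowest Zfp423 ratio. The part of these cells in the Zfp423 values was not tested.

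Ebf2, the brown precursor factor and partner of PRDM16, was lower in knockout tissue in 7 of 8 arrays without passing the test at either age. Its probe (A_51_P386562, chromosome 14, 68048145 to 68048204, plus strand, mm9) had levels at 6 weeks of 11.19, 11.57, 11.45 and 11.38 in knockout tissue, against 12.14, 11.85, 11.70 and 11.71 in wild-type tissue. These levels did not overlap. The ratios were -0.96, -0.29, -0.25 and -0.34, with array 1 apart from the other 3, and the fitted value was -0.46 ± 0.19 (adjusted p = 0.142). In 11-month tissue the levels were 10.92, 10.89, 11.30 and 11.39 in knockout tissue, against 11.89, 11.61, 11.48 and 11.22 in wild-type tissue. They overlapped through array 4. The ratios were -0.97 and -0.72 with the knockout in Cy5 and -0.18 and 0.17 with it in Cy3. The fitted value was -0.42 ± 0.19 (adjusted p = 0.107). It became a call without 6-week array 1 (adjusted p = 0.0379) and without 11-month array 4 (-0.61, adjusted p = 0.0449). A separate model per age (adjusted p = 0.0252) and a dye coefficient for each age (adjusted p = 0.0258) also made it a call. It shrank to -0.26 without 11-month array 1 (adjusted p = 0.382) and to -0.0336 under median centring (adjusted p = 0.851). At 6 weeks a dye coefficient for each age made Ebf2 a call (adjusted p = 0.0395), and the value was -0.21 without array 1 (adjusted p = 0.507) and -0.24 under median centring (adjusted p = 0.242).

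Over both ages the mean ratio of Ebf2 was -0.44 ± 0.13 (1.36-fold lower, adjusted p = 0.0323). That call ended without 6-week array 1 or 2 (adjusted p = 0.0523 and 0.0645) and without 11-month array 1, 2 or 3 (adjusted p = 0.0877, 0.0891 and 0.056). Median centring ended it too (-0.14, adjusted p = 0.252). Between ages the Ebf2 ratio differed by 0.03 ± 0.26 (adjusted p = 0.942).

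Neither of the other EBF genes was called at either age. Ebf1, needed for B lymphocytes and for the making of fat cells, had a bright probe (A_55_P2065513, chromosome 11, 44818438 to 44818497, plus strand, mm9). Its mean level at 6 weeks was 11.79 ± 0.19 in knockout and 11.77 ± 0.23 in wild-type tissue (SD, n = 4 each), and the fitted ratio was 0.02 ± 0.11 (adjusted p = 0.939). In 11-month tissue the means were 11.41 ± 0.13 in knockout and 11.21 ± 0.25 in wild-type tissue (SD, n = 4 each), with a fitted ratio of 0.20 ± 0.11 (adjusted p = 0.183). Median centring made this 11-month value a call (0.59, adjusted p = 0.00526), and without 11-month array 1 it was 0.0929 (adjusted p = 0.58). The knockout and wild-type ranges overlapped at both ages. Of 8 B cell markers 5 were tested and 0 called at either age (limma), where 14.1% (6 weeks) and 40.6% (11 months) of all genes were. At each age 1 had an unadjusted p below 0.05, and Pax5, Blk and Fcrla were not tested. Ebf3, a relative best known from neurons, was read by a probe on chromosome 7 (A_51_P246543, 144385490 to 144385549, minus strand, mm9). Its fitted ratio was 0.10 ± 0.11 at 6 weeks (adjusted p = 0.588) and -0.20 ± 0.11 at 11 months (adjusted p = 0.187), with the knockout channel lower in 4 of 4 arrays at 11 months. With median centring the 11-month value turned to 0.17 (adjusted p = 0.369).

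Zic1, a zinc-finger gene of the somite and hindbrain that is used to tell classical brown from beige fat, was higher in 3 of 4 arrays at 6 weeks on one probe and in 4 of 4 on the other, and the second alone was called. The brighter probe (A_51_P194230, chromosome 9, 91255425 to 91255484, minus strand, mm9) had levels at 6 weeks of 10.71, 10.58, 10.55 and 9.93 in knockout tissue, against 10.21, 9.93, 10.09 and 10.01 in wild-type tissue. The knockout levels of arrays 1 to 3 lay above all wild-type levels and that of array 4 lay below them. The fitted ratio was 0.38 ± 0.13 (adjusted p = 0.0855), and it was 0.08 ± 0.13 at 11 months (adjusted p = 0.662). Without 11-month array 4 the same 6-week value was called (adjusted p = 0.0359), and with 6-week and 11-month arrays 4 both left out it was 0.48 (adjusted p = 0.0407). The sign at 11 months turned to -0.03 without 11-month array 3.

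The dimmer Zic1 probe (A_55_P2009774, chromosome 9, 91257301 to 91257360, minus strand, mm9) starts 1876 bases from the brighter one and holds the same spaced TGC pair as the Zfp423 probe above, in capitals here. Its reading frame was not checked either.
Zic1 A_55_P2009774: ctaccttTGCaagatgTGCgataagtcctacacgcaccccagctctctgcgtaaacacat
On this probe the knockout channel was higher in all 8 arrays. At 6 weeks its levels were 7.71, 7.62, 7.65 and 7.44 in knockout tissue, against 7.37, 7.22, 7.35 and 7.37 in wild-type tissue, without overlap. The fitted ratio was 0.28 ± 0.06 (adjusted p = 0.0239 over all kept probes). Its 11-month levels were 7.57, 7.52, 7.88 and 7.68 in knockout tissue, against 7.42, 7.40, 7.69 and 7.55 in wild-type tissue, and the fitted ratio was 0.15 ± 0.06 (adjusted p = 0.0874). The difference between ages was not called on this probe (-0.13 ± 0.08, adjusted p = 0.314). All channels of both Zic1 probes were well above background.

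**Figure D2:**
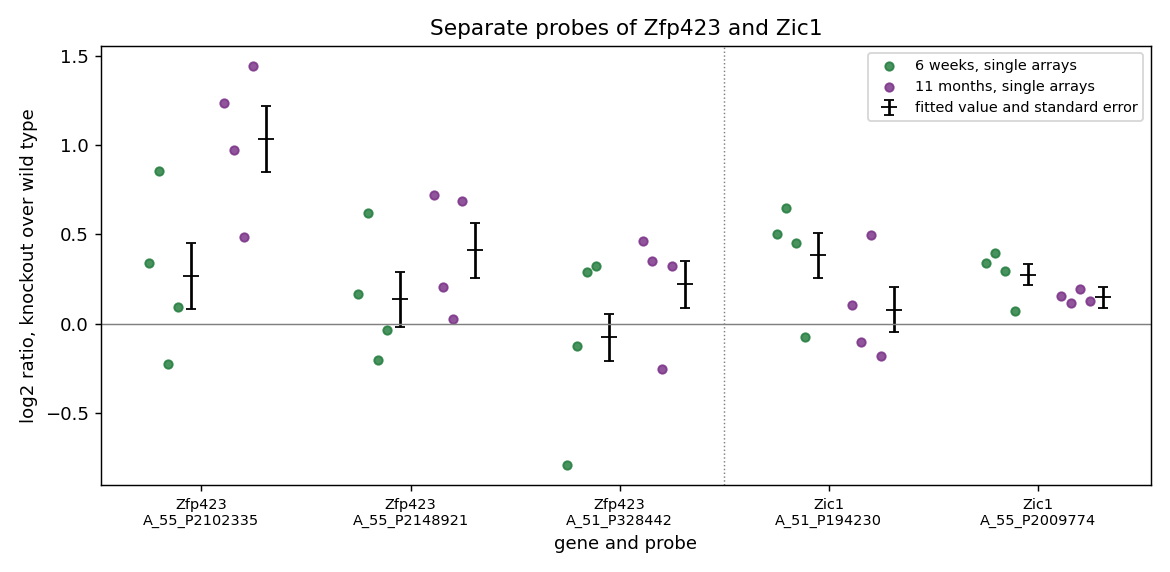
Log2 ratio of knockout over wild type (vertical axis) on each of the 3 Zfp423 probes and the 2 Zic1 probes (horizontal axis) in each array at 6 weeks (green) and 11 months (purple), with the fitted value and its standard error in black. Only the first Zfp423 probe stands near 1 at 11 months, against 0.41 and 0.22 for the others, and the dimmer Zic1 probe lies above 0 in all 8 arrays.

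Lhx8, a LIM-homeobox gene known from forebrain neurons and used as a second classical brown mark, had ratios above 0 in 6 of 8 arrays. Its probe (A_51_P298615, chromosome 3, 153969377 to 153969436, minus strand, mm9) gave a mean level at 6 weeks of 9.78 ± 0.39 in knockout and 9.46 ± 0.40 in wild-type tissue (SD, n = 4 each). At 11 months it gave 9.21 ± 0.63 in knockout and 8.73 ± 0.29 in wild-type tissue. The ranges overlapped at both ages. The fitted ratios were 0.31 ± 0.18 (adjusted p = 0.292) at 6 weeks and 0.48 ± 0.18 (adjusted p = 0.0706) at 11 months. The measured 11-month ratios followed the dye, at 0.15 and -0.33 with the knockout in Cy5 and 0.95 and 1.14 with the knockout in Cy3, and the fitted dye effect (Cy5 over Cy3) was -0.38. The 11-month value was called without 6-week array 1 or 3 (adjusted p = 0.0237 and 0.0493) or 11-month array 2 (0.65, adjusted p = 0.048), with a separate model per age (adjusted p = 0.026) and under median centring (0.75, adjusted p = 0.00652). The mean of both ages was 0.40 ± 0.13 (adjusted p = 0.0435), a call kept without 6-week array 1 or 11-month array 2 and lost without each of the other 6, at adjusted p = 0.0754 to 0.108. Without a dye term it was lost as well (adjusted p = 0.125). Of the 14 alternatives run for this mean, 3 kept the call and 11 lost it.

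Tbx15, a T-box gene of skeletal and fat depot patterning that fast muscle fibres also express, was dim and variable. Its probe (A_52_P232802, chromosome 3, 99157901 to 99157960, plus strand, mm9) gave ratios at 6 weeks of 0.54, -0.38, 0.27 and -0.16 and a fitted value of 0.07 ± 0.22 (adjusted p = 0.866). The 11-month ratios were 0.02, -0.33, 0.84 and 1.30, with a fitted value of 0.46 ± 0.22 (adjusted p = 0.135). The smaller pair had the knockout in Cy5 and the larger pair had it in Cy3, and the fitted dye effect (Cy5 over Cy3) was -0.31. Array 4 was the highest, and it was also the array with the highest skeletal muscle median of its age, 1.72. Array 3, with the ratio of 0.84, had a muscle median of -0.36. Without array 4 the value was 0.24 (adjusted p = 0.442). The part of muscle RNA in the Tbx15 values was not tested further. The 11-month value was called without 6-week array 2 (adjusted p = 0.0447), with a separate model per age (adjusted p = 0.0351) and under median centring (0.68, adjusted p = 0.0247). Without 6-week array 3 the 6-week value turned to -0.14 (adjusted p = 0.758).

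Tcf21, a bHLH factor gene that marks visceral white precursors, was not well above background in any of the 16 channel measurements. Its single probe (A_51_P459944, chromosome 10, 22537563 to 22537622, minus strand, mm9) read 6.20 ± 0.04 in knockout and 6.21 ± 0.19 in wild-type tissue at 6 weeks (SD, n = 4 each). At 11 months it read 6.23 ± 0.16 in knockout and 6.35 ± 0.07 in wild-type tissue. These readings are bounds and not measured levels, so no fold is given.

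Cebpa, the gene of the C/EBP factor of terminal fat cell differentiation, was 1.83-fold higher in knockout tissue at 11 months. Its probe (A_52_P168567, chromosome 7, 35906517 to 35906576, plus strand, mm9) had levels at 11 months of 14.16, 14.14, 14.70 and 14.64 in knockout tissue, against 13.95, 13.67, 13.34 and 13.21 in wild-type tissue. Every knockout level lay above every wild-type level. The measured ratios were 0.21, 0.47, 1.37 and 1.43, the smaller pair with the knockout in Cy5 and the larger pair with the knockout in Cy3. With the fitted dye effect of -0.42 removed, the ratios of the 4 arrays were 0.63, 0.89, 0.95 and 1.01, and the fitted value was 0.87 ± 0.10 (adjusted p = 0.000456). It stayed called without any single array, at 0.81 to 0.96.

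At 6 weeks Cebpa was not called. Its levels were 13.82, 14.07, 13.66 and 13.81 in knockout tissue, against 13.97, 13.80, 14.33 and 14.28 in wild-type tissue, and they overlapped. The measured ratios were -0.15, 0.26, -0.67 and -0.46. After removal of the dye effect all 4 were below 0, from -0.57 to -0.04, with a fitted value of -0.25 ± 0.10 (adjusted p = 0.126). It was -0.0078 under median centring (adjusted p = 0.956) and -0.13 without 6-week array 1 (adjusted p = 0.463). The difference between ages was 1.12 ± 0.14 (2.18-fold, adjusted p = 0.00328), and without any single array it stayed called at 0.999 to 1.22.

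Klf15 also had ratios above 0 at 11 months and below 0 at 6 weeks, with a larger spread between arrays. Its probe (A_55_P2022049, chromosome 6, 90425144 to 90425203, plus strand, mm9) had levels at 6 weeks of 9.61, 11.24, 11.31 and 11.35 in knockout tissue, against 11.33, 11.46, 11.70 and 11.72 in wild-type tissue. The knockout channel was lower in 4 of 4 arrays and far lower in array 1, with ratios of -1.72, -0.23, -0.39 and -0.38. The fitted value was -0.68 ± 0.28 (adjusted p = 0.141), and it was -0.31 without array 1 (adjusted p = 0.508).

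The 11-month levels of Klf15 were 11.68, 11.21, 12.03 and 11.56 in knockout tissue, against 10.57, 10.68, 10.52 and 11.27 in wild-type tissue. The knockout channel was higher in 4 of 4 arrays, with ratios of 1.11, 0.53, 1.51 and 0.28, although the ranges overlapped. The fitted value was 0.86 ± 0.28 (1.81-fold higher, adjusted p = 0.0399). This call ended without 6-week array 3 or 4 (adjusted p = 0.0575 and 0.0581) and without 11-month array 1, 2 or 3 (0.81, 1.04 and 0.55, adjusted p = 0.127, 0.0533 and 0.168). The difference between ages was 1.54 ± 0.39 (2.90-fold, adjusted p = 0.0308), and the ratios of the 2 ages did not overlap. The call of the difference ended without 6-week array 3 or 4 (adjusted p = 0.0584 and 0.0626) or 11-month array 1 or 3 (adjusted p = 0.0738 and 0.0605), and its size without any single array was 1.17 to 1.77. Skeletal muscle also expresses Klf15. Both arrays numbered 4, which had the muscle medians farthest from 0 of their ages, were left out in one alternative. The 11-month value was then 1.06 (adjusted p = 0.0598) and the difference was 1.85 (adjusted p = 0.0682). The 6-week arrays 2 and 3, with muscle medians of -2.76 and 2.94, stayed in. The part of muscle RNA in the Klf15 values was therefore not tested.

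**Figure D3:**
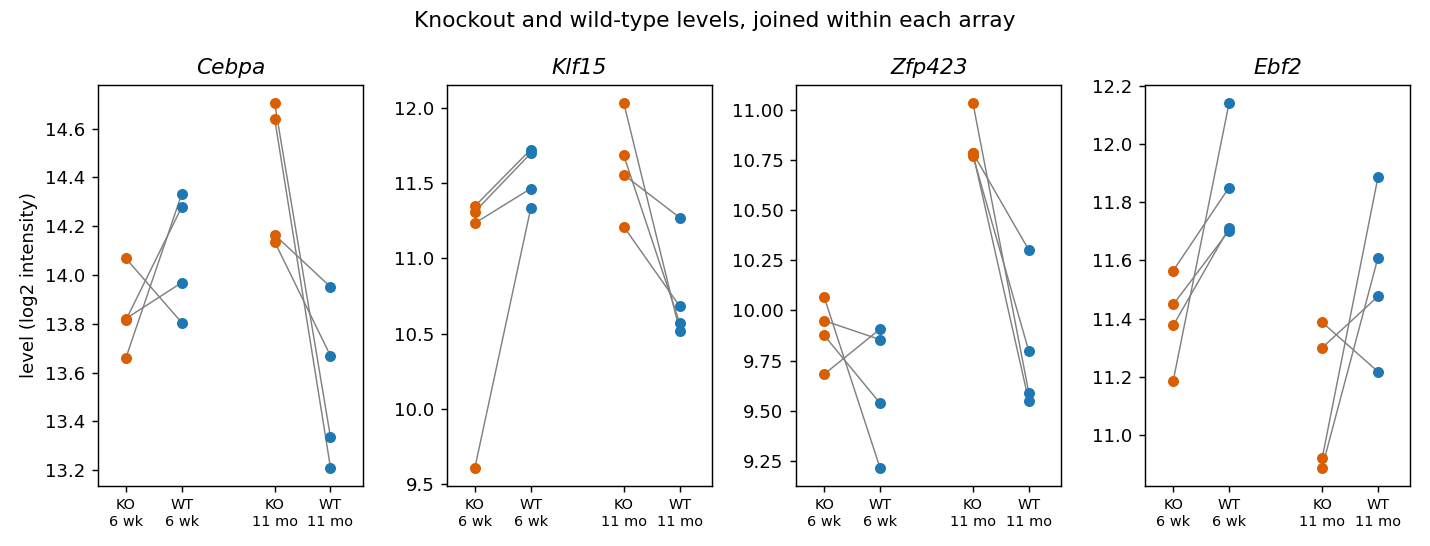
Levels (log2 intensity, vertical axis, not starting at 0) of Cebpa, Klf15, Zfp423 and Ebf2 in knockout (orange, KO) and wild-type (blue, WT) tissue at 6 weeks (6 wk) and 11 months (11 mo), with lines joining the 2 channels of an array. The lines of Cebpa, Klf15 and Zfp423 run down to wild type in all 4 arrays at 11 months, and those of Klf15 and Ebf2 run up to wild type in all 4 arrays at 6 weeks.

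Cebpa and Klf15 were the 2 genes called for the difference between ages, and their promoters are shown for that reason, from 250 bases before to 50 bases after the start of the gene (RefSeq, GRCm38.p6). Such an entry matched 8 of the 10 genes. In the Cebpa window (chr7:35119043-35119342, plus strand) the capitals mark TATAAA, first base at -30, and CCACCC read on the other strand, first base at -242 and at 45 relative to the start. CCACCC is the short form of the CACCC box that Krüppel-like factors bind. The Klf15 window (chr6:90462326-90462625, plus strand) held no match to any of the motifs searched.
Cebpa promoter: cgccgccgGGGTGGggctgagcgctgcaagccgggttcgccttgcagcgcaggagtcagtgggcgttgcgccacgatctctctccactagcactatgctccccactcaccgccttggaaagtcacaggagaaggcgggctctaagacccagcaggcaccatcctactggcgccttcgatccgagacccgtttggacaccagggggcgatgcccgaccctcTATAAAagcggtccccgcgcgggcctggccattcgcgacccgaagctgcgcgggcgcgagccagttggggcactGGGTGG
Klf15 promoter: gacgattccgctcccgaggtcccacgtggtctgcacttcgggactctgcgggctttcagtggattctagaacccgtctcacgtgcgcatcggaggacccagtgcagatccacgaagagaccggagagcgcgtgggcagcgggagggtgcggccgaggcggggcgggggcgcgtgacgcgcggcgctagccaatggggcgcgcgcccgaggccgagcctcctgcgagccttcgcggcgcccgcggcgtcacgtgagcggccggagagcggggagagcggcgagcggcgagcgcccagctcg
The motifs were searched on both strands of all 32851 windows of that length. CCACCC was found in 31.5% of them, TATAAA in 13.6%, the longer Krüppel box CCACACCC in 3.56%, the C/EBP pattern TTGCNNCAA in 2.08%, its palindrome TTGCGCAA, which is one case of that pattern, in 0.183%, and the EBF pattern (TCCC and GGGA with 2 bases between them) in 0.904%. CCACCC also stood in the windows of Zfp423 and Lhx8. The longer CCACACCC stood in the window of Lhx8 alone, first base at -70. Neither EBF nor C/EBP letters stood in any window of the 8 genes. A match or its lack describes these letters in these windows only.

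General adipocyte markers were higher in knockout tissue at both ages, where 14.1% of all genes were called at 6 weeks and 40.6% at 11 months. Of these 10 markers 6 were higher and 0 lower at 6 weeks, and 8 were higher and 0 lower at 11 months. Their median ratio was 0.62, 0.69, 0.52 and 0.83 in the 11-month arrays 1 to 4, and their summed linear intensity there ran from 1089140 to 1205850 in knockout tissue, against 508791 to 1005580 in wild-type tissue. Macrophage markers were called higher in 6 of 8 at 11 months, with median ratios of 0.10, -0.01, 1.30 and 0.58 by array, and in 1 of 8 at 6 weeks. Pericyte and smooth muscle markers were higher in 5 of 8 at 11 months and lower in 1 of 8 at 6 weeks. Of 8 endothelial markers 2 were lower at 6 weeks and 0 were called at 11 months (limma), where 1 had an unadjusted p below 0.05. Of 8 nerve and Schwann cell markers 1 was higher at each age and 2 were lower at 11 months. Array 3 thus had the highest macrophage and fibroblast medians of its age, the lowest brown marker median (-4.50) and the highest Klf15 ratio. The part of these cell types in the Cebpa and Klf15 values was not tested.

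**Figure D4:**
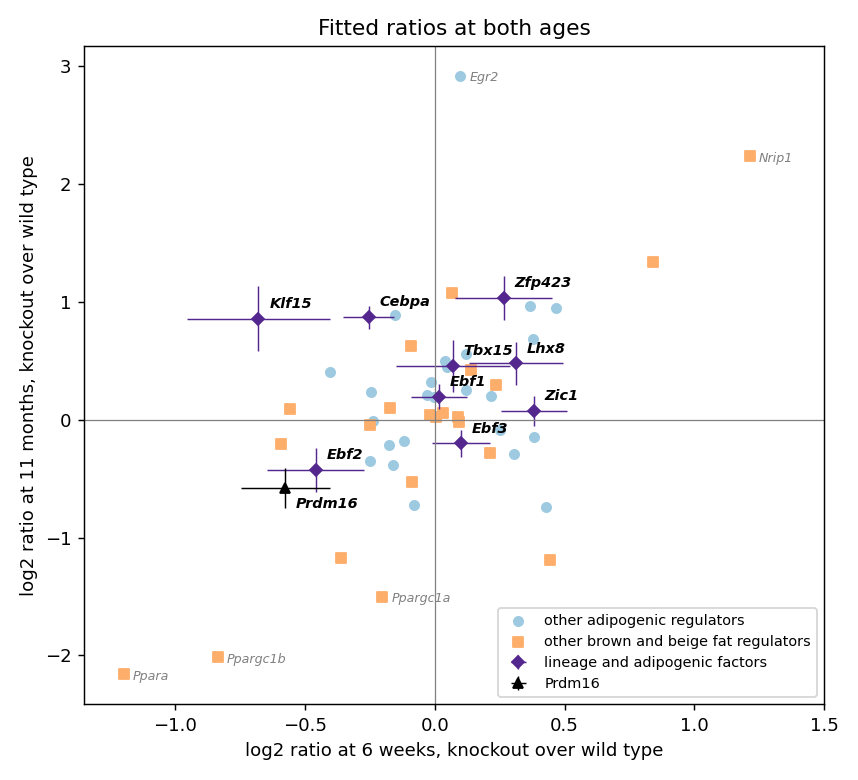
Fitted log2 ratio of knockout over wild type at 11 months (vertical axis) against that at 6 weeks (horizontal axis) for the 9 tested lineage and adipogenic factor genes (diamonds, with standard errors), Prdm16 (triangle) and the genes of the lists of other adipogenic (circles) and brown and beige fat (squares) regulators. Cebpa and Klf15 lie in the upper left (Cebpa at -0.0078 at 6 weeks under median centring), Zfp423 in the upper right and Ebf2 beside Prdm16 in the lower left.

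Among 25 tested adipogenic regulators, 1 was higher and 1 lower in knockout tissue at 6 weeks, where 14.1% of all genes were called. At 11 months 12 were higher and 3 lower, where 40.6% of all genes were called, and the list medians were 0.04 and 0.21. For the difference between ages 2 were called above 0 and 3 below, where 21% of all genes were called. At 6 weeks Tle3, a corepressor that aids PPARG in fat cells, rose by 0.38 ± 0.10 (adjusted p = 0.0446), and Zfp467, a zinc-finger factor that favours fat over bone cells, fell by 0.40 ± 0.11 (adjusted p = 0.0447). At 11 months the largest changes were those of Egr2 (2.92 ± 0.61, adjusted p = 0.00687), an early-acting zinc-finger factor, Cebpd (0.97 ± 0.22, adjusted p = 0.0098), an early C/EBP factor, Srebf1 (0.95 ± 0.24, adjusted p = 0.0151), the sterol-sensing driver of lipid synthesis, and Klf6 (0.89 ± 0.09, adjusted p = 0.000293), a Krüppel-like factor. Pparg, with which C/EBPA acts, was not called at either age, at -0.25 ± 0.16 at 6 weeks (adjusted p = 0.337) and -0.35 ± 0.16 at 11 months (adjusted p = 0.112), and it was named after its value was seen.

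Of 23 tested brown and beige regulators, 1 was higher and 2 were lower at 6 weeks, where 14.1% of all genes were called. At 11 months 4 were higher and 7 lower, where 40.6% of all genes were called, 4564 higher and 4255 lower. Nrip1, a corepressor of oxidative genes, rose by 1.21 ± 0.23 at 6 weeks (2.32-fold, adjusted p = 0.0156) and by 2.24 ± 0.23 at 11 months (4.71-fold, adjusted p = 0.000289). The developmental factors Twist1 and Meox2 were lower at 6 weeks, at -0.59 ± 0.14 (adjusted p = 0.0356) and -0.56 ± 0.15 (adjusted p = 0.0446). At 11 months Ppara, the fatty acid receptor gene, fell by 2.16 ± 0.46 (adjusted p = 0.00785). The coactivator genes Ppargc1b and Ppargc1a were also lower at 11 months, Ppargc1b at -2.02 ± 0.23 (4.05-fold, adjusted p = 0.00049) and Ppargc1a 2.84-fold (adjusted p = 0.000498). The list's median was -0.02 at 6 weeks and 0.02 at 11 months.

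Among relatives of the 10 genes, 32 of 44 listed were tested. At 6 weeks 1 was called (higher), where 14.1% of all genes were called. At 11 months 8 were called (4 higher and 4 lower), where 40.6% of all genes were called. Klf10, a Krüppel-like gene, had ratios of opposite sign to those of Klf15, with 0.94 ± 0.17 at 6 weeks (adjusted p = 0.0148) and -0.58 ± 0.17 at 11 months (adjusted p = 0.0314), a difference of -1.52 ± 0.25 (adjusted p = 0.00698). Cebpb, the C/EBP factor that precedes C/EBPA in fat cell formation and a partner of PRDM16, also had ratios of opposite sign to those of Cebpa. Its ratio was 0.43 ± 0.17 at 6 weeks (adjusted p = 0.132) and -0.74 ± 0.17 at 11 months (adjusted p = 0.011), and the difference was -1.17 ± 0.24 (adjusted p = 0.0158). Cebpd and Klf6, both named above, also belong to these families and were higher at 11 months, as were Cebpa and Klf15. At 6 weeks Klf6 was at -0.15 ± 0.09 (adjusted p = 0.302) and Cebpd at 0.37 ± 0.22 (adjusted p = 0.301).

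Of 15 tested textbook target genes of C/EBPA, EBF2 and KLF15, 7 were higher and 1 lower at 6 weeks, where 14.1% of all genes were called. At 11 months, where 40.6% were called, 8 of these targets were higher and 3 lower. Their median ratio was 0.40 at each age. The white fat hormone gene Retn, a C/EBPA target, rose at 6 weeks by 2.40 ± 0.12 (5.28-fold, adjusted p = 0.000201) and at 11 months by 3.85 ± 0.12 (14.5-fold, adjusted p = 5.45e-06). The Cebpa ratio was -0.25 at 6 weeks, which was not called, and 0.87 at 11 months. The desaturase gene Scd1, the acetate-activating Acss2 and the fatty acid binding protein gene Fabp4 rose at 6 weeks by 2.28 ± 0.34, 1.66 ± 0.28 and 0.85 ± 0.11 (adjusted p = 0.00698, 0.0115 and 0.00464). Gpt2, an alanine aminotransferase gene under KLF15 control in liver and muscle, rose at 11 months by 2.88 ± 0.17 (7.34-fold, adjusted p = 3.84e-05). The brown genes Ucp1 and Cidea, at which EBF2 acts, were lower at 11 months, at -4.15 ± 0.50 (17.7-fold lower, adjusted p = 0.000582) and -2.24 ± 0.18 (4.74-fold lower, adjusted p = 0.000104). At 6 weeks Ucp1 was at 0.13 ± 0.50 (adjusted p = 0.888) and Cidea at -0.0036 ± 0.18 (adjusted p = 0.992). The Ebf2 ratios were -0.46 at 6 weeks and -0.42 at 11 months, and neither was called. The part of these factors in the target values was not tested.

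For each called gene the 3 tested genes with the most similar pattern were sought over the 8 dye-adjusted array ratios, as a description of arrays that share a batch within each age. For Cebpa they were D0Kist3, Dctn1 and Gbp2 (Pearson r = 0.996, 0.995 and 0.992). Of these, Gbp2 came nearest in size, with fitted ratios of 0.10 at 6 weeks and 1.17 at 11 months. For Klf15 they were Msantd2, Oma1 and Eps8 (r = 0.989, 0.984 and 0.983), and for Zfp423 they were Dapk3, Asphd1 and Tmem106a (r = 0.992, 0.992 and 0.985). The 3 genes nearest to Zfp423 had fitted ratios of only -0.01 to 0.16 at 11 months, so they shared the order of the arrays and not the size.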

How the data were processed

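RNA of knockout and wild-type brown adipose tissue had been labelled with Cy3 or Cy5 and hybridized in pairs to 8 Agilent arrays. The deposited scanner files give each spot's mean and local background intensity. Their headers name Feature Extraction 10.5.1.1 (6-week arrays) and 10.10.1.1 (11-month arrays) and mm9 as the build of the probe positions. The deposited files also give a log10 ratio of Cy5 over Cy3 made by that software. The deposited value table holds log2 ratios of knockout over wild type, as its correlation with the scanner ratios (-0.983 to -0.953 with the knockout in Cy3, 0.962 to 0.976 with it in Cy5) showed once its entries were matched by the running number of the spot; limma is the tool in the submitters' processing notes, while its other steps and its centring are not stated; column medians ran from -0.051 to 0.085. Both served as alternatives.

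From the intensities, background was corrected by normexp (offset 50) and ratios by loess within each array, with control spots and spots marked as outliers (134 to 247 per array, the 5 below included) at weight 0, using limma 3.58.1 in R 4.3.3. On 11-month array 3, 5 spots with a local background over 5 times the array's median (up to 48914, against 25) had distorted the normexp fit and were left out of it, a choice made after seeing the data, with keeping them as an alternative. Of 39429 probes, 26853 were kept as well above background in 4 or more of 16 channel measurements, with values from 3 or more arrays per age; 61.2% to 68.2% of spots per channel were well above background, and none was saturated. The kept probe with the highest mean intensity stood for a gene, and 14809 of 21742 genes took their symbol from RefSeq through the accession. Channel levels are those after loess and quantile normalization of mean intensity across arrays. The limma model had a coefficient for each age and 1 shared dye coefficient (5 residual degrees of freedom), with p-values adjusted over all genes, or over all kept probes for single probes. The number of arrays limits the precision. The model was tested on simulated ratios.

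The members, lists and tests were chosen with earlier results of these data known. Genes named are every member, Prdm16, up to 4 called genes with the largest change per regulator, relative or target list and age, and the 3 genes most like each called member. The 3 brown adipocyte markers lower at 6 weeks are named too. The lists are adipogenic regulators, brown and beige fat regulators, family relatives, textbook targets and markers of brown adipocytes, adipocytes, precursors and fibroblasts, skeletal muscle, B cells, macrophages, endothelium, nerve and Schwann cells, and pericytes and smooth muscle. Alternatives were the scanner's ratio, the deposited value table, median centring, 2 other filters, the mean of all probes, 2 other dye terms, each age alone, the replicate number as a block, and leaving out each array.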

Additional observations from a re-analysis of the deposited data

Results flagged for a closer look

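In the 20 sets of 4 arrays looked at (9 members and Prdm16 at each age), 2 single arrays stood apart from the others of their set. The rule was applied only to the measured ratios, with the dye effect still in them. Chance alone flags about 1 set in 20 if the sets are independent, and these sets share the same 8 arrays. Both flagged arrays are 6-week array 1. There the Ebf2 ratio was -0.9554, against -0.34 to -0.25 in the other 3 arrays, and without that array the fitted value was -0.21 (adjusted p = 0.507). The Klf15 ratio in the same array was -1.7226, against -0.39 to -0.23 in the others. With the fitted dye effect removed, the Ebf2 ratio there was -1.08, against -0.42 to -0.13 in the others. The Klf15 ratio was then -1.59 in that array, against -0.52 to -0.10 in the others. That array also had the lowest median ratio of brown adipocyte markers of its age (-1.33) and of adipocyte markers (-0.13); the part of this in the Ebf2 and Klf15 values was not tested.

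The knockout ratio differed between ages, by the test of the difference itself, for Cebpa (11 months minus 6 weeks 1.1244, adjusted p = 0.00328) and for Klf15 (1.5375, adjusted p = 0.0308). The fitted ratio was above 0 at 11 months and below 0 at 6 weeks for both genes, and the 6-week values alone were not called. The 6-week value of Cebpa came to -0.0078 under median centring and to -0.13 without 6-week array 1. Without 6-week array 1 the Klf15 difference was 1.17 (adjusted p = 0.0477). Age and batch cannot be told apart, since the ages lay on separate slides read by different versions of the scanner software.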

How the results depend on the processing

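Of 598 recomputed member values (32 values with their alternatives, Prdm16 included), 519 kept their direction and their side of the threshold. Another 34 lost and 26 gained a call, and 19 changed sign. In many alternatives the fitted ratio of an age had no room to move, and only its standard error and adjusted p changed. Ebf2 at 6 weeks stayed at -0.4581 with the other filters and dye terms, each age alone and without any single 11-month array. Its adjusted p there ran from 0.0395 to 0.186. Cebpa at 11 months stayed at 0.8697 in the matching settings. The 519 therefore include many directions that were not put to a test. The calls of Zfp423 and Cebpa at 11 months and of Cebpa for the difference held under every alternative run, while those of Klf15 ended without several single arrays.

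Members called at 6 weeks numbered 0 and became 1 with median centring (Zic1), the mean of all kept probes (Zic1), a dye coefficient for each age (Ebf2) and both arrays numbered 4 left out (Zic1), and 0 to 1 without single arrays. All genes called numbered 3484 with median centring, 3109 with the mean of all kept probes and 4278 with a dye coefficient for each age, against 3056. At 11 months the 3 calls became 7 with median centring (Ebf1, Lhx8, Tbx15 and Zic1 added), 6 with each age modelled alone (Ebf2, Lhx8 and Tbx15 added) and 2 to 5 without single arrays, where all genes called numbered 11580, 7714 and 6507 to 8697, against 8819. With a dye coefficient for each age the 3 calls became 4 (Ebf2 added), where all genes called numbered 9697. The 2 calls for the difference became 1 with both arrays numbered 4 left out, 3 with median centring (Zfp423 added) and 1 to 2 without single arrays. Without 11-month array 3 they were Cebpa and Zfp423. With median centring all genes called for the difference numbered 4641, against 4561. The 4 calls for both ages together, where all genes called numbered 8345, became 2 without a dye coefficient and 2 to 4 without single arrays. All genes called at 6 weeks numbered 3056, then 1673 with both arrays numbered 4 left out and 934 to 3871 without single arrays (934, 1446, 1148 and 1502 without 6-week arrays 1 to 4); for the difference they numbered 4561, then 2380 and 2363 to 4392 (2363 and 2852 without 6-week arrays 2 and 4, and 2638 without 11-month array 2). The cause was not tested. The mean of the 3 Zfp423 probes was 0.56 at 11 months, against 1.03 for the brightest.

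The following values changed sign. The Ebf1 ratio at 6 weeks was -0.0265 from the scanner's ratio and -0.0776 to 0.0903 without single arrays. Without single arrays Tbx15 at 6 weeks ran from -0.14 to 0.37 and Zic1 at 11 months from -0.0341 to 0.24. Ebf3 at 11 months was 0.17 with median centring, against -0.20 ± 0.11 with loess. The difference between ages ran without single arrays from -0.22 to 0.20 for Ebf2, -0.0782 to 0.36 for Lhx8 and -0.25 to 0.17 for Prdm16. With both arrays numbered 4 left out it was -0.0733 for Ebf2 and -0.0336 for Lhx8, and for Prdm16 it was 0.003 from the deposited value table, 0.19 with median centring and 0.0725 with the spots of outlying background kept. Median centring moved the share of called genes that were higher to 78.8%, 76.7% and 73.2% (6 weeks, 11 months, difference), against 57.2%, 51.8% and 46.7% in the main setting.

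The deviations of same-numbered arrays of the 2 ages correlated at -0.158 to -0.0108 over genes, but these arrays always had opposite dyes. With a dye coefficient of each age removed, the 2 arrays of one age and dye are mirror images of each other. The 4 same-numbered correlations therefore held only 2 distinct values, 0.0923 and 0.0223. Arrays of unlike number correlated at -0.09995 to 0.09995. These correlations cannot decide whether equal numbers are pairs, and the numbers were not taken as pairs. With the replicate block the difference between ages was called in 4920 genes and 2 members, with Zfp423 at adjusted p = 0.0428 and Klf15 at adjusted p = 0.0539.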
